A study of Rattus norvegicus with 48 samples.

Results

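Acta2, Tagln, Des and Vim, 4 genes of the contractile and intermediate-filament cytoskeleton of myofibroblasts, were followed across all groups of a rat liver slice experiment. They were chosen by name and Ensembl ID, not by their values: Acta2 is ENSRNOG00000058039, Tagln ENSRNOG00000017628, Des ENSRNOG00000019810 and Vim ENSRNOG00000018087. They are 4 of the 32883 genes of the deposited count table, and all 4 were among the 14775 genes that passed a filter on low counts and were tested. RNA was sequenced from precision-cut slices, thin pieces of living liver studied ex vivo, in a model for testing compounds against fibrosis. The slices came from rats after bile duct ligation (BDL), which stops the flow of bile and scars the liver, or from sham-operated rats. The 48 libraries formed 5 groups: ligated slices with SB525334 (BDL_SB525334, n = 9), with Nint (BDL_Nint, n = 10), with Sora (BDL_Sora, n = 10) or with vehicle (BDL_veh, n = 10), and sham slices with vehicle (Sham_veh, n = 9). All 3 compound groups therefore carry the ligation, and no compound was applied to sham slices.

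SB525334 is an inhibitor of ALK5, the type I receptor kinase for TGF-beta. The short forms Sora and Nint of the labels were taken to stand for sorafenib and nintedanib, which inhibit several kinases and act on receptors for platelet-derived and vascular endothelial growth factors. A different compound code stands for the SB525334 group in the deposited sample sheet, in 9 of 9 libraries, and the labels were followed here. The labels give no strain, age, dose, exposure time or number of animals, so the spread behind each p-value is that of these libraries and may be technical, and the compounds cannot be compared at known doses.

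Myofibroblasts are the contractile, matrix-producing cells of a fibrotic liver, and they arise mainly from hepatic stellate cells and from fibroblasts around the portal tracts. Acta2 encodes alpha-smooth muscle actin, the thin-filament actin that defines the contractile state, and Tagln encodes transgelin (SM22-alpha), an actin-binding protein of smooth muscle. Des encodes desmin, a muscle intermediate filament protein that also marks stellate cells in the rat, and Vim encodes vimentin, an intermediate filament protein of mesenchymal cells in general, including stellate cells, endothelial cells and leukocytes. TGF-beta signals through ALK5 to Smad proteins, and Acta2 and Tagln are textbook targets of this pathway and of serum response factor, which binds DNA elements called CArG boxes.

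The stretches around the transcription start of the genes in the RefSeq promoter table (build GRCr8, 250 bases before to 50 after the start) are shown because Acta2 moved apart from Des and Vim in the results. The table holds 3 of the 4 genes: Acta2 at chr1:241172454-241172753 on the minus strand, Des at chr9:84299376-84299675 on the plus strand and Vim at chr17:81577011-81577310 on the plus strand. Capitals mark CArG boxes with 1 mismatch and TATA-like motifs, and each sequence is written 5′ to 3′ on the strand of its gene.

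Acta2: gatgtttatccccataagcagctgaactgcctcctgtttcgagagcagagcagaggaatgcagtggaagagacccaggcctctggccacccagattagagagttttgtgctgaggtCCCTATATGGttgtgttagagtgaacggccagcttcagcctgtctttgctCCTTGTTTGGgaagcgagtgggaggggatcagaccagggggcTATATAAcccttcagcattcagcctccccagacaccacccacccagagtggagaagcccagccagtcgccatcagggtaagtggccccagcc

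Des: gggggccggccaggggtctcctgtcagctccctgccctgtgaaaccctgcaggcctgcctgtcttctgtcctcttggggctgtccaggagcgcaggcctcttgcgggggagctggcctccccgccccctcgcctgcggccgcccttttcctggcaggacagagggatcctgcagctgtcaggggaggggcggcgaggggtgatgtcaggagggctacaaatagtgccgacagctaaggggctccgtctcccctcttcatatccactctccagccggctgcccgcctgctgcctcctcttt

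Vim: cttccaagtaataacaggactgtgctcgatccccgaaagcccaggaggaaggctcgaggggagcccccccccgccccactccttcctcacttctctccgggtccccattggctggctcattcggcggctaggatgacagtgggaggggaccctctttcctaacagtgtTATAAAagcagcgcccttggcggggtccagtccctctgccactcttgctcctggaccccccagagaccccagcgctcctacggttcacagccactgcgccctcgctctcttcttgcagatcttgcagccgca

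A CArG box was defined as 2 C, then 6 bases that are each A or T, then 2 G, and both strands were searched. None of the 3 stretches held an exact box, which 1.64% of 33469 promoters of the same length did. With 1 mismatch among the inner bases, the Acta2 stretch held 2 boxes, CCCTATATGG beginning 134 bases before the start and CCTTGTTTGG beginning 84 bases before it. Such a box was present in 8.1% of all promoters and in neither the Des nor the Vim stretch. The Acta2 stretch had the motif TATATAA beginning 42 bases before the start, a motif held by 3.93% of promoters, and the Vim stretch had TATAAA beginning 82 bases before it, held by 14.2%. Further motifs were searched, with N for any base. CAGAC was at 2 positions of the Acta2 stretch alone and in 50.1% of promoters. CANNTG was in the Acta2 and Des stretches and in 72.1% of promoters. TGANTCA was in none of the 3 stretches and in 7.33% of promoters. The relaxed CArG box and TATATAA were chosen with the Acta2 sequence in view, and these matches describe letters only.

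The libraries held 12249454 to 29596955 counts in total, and group medians lay between 13629215 and 16766287. Levels are given as counts scaled to library size (CPM) after scaling with TMM factors, which bring the bulk of genes to the same level in every library. These factors averaged 0.839 in SB525334 libraries and 1.10, 1.07 and 1.12 in Nint, Sora and ligated vehicle libraries, against 0.878 in sham libraries. In an earlier account of these data, SB525334 libraries 1, 6 and 8 and ligated vehicle libraries 3 and 6 stood apart from the rest of their groups, and results that change without them are given both ways. The deposited files do not pair other IDs with symbols, so markers of other cell types, and the liver label, could not be checked here. CPM is not divided by gene length, so levels are compared for each gene across groups and not between genes.

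Ligation went with higher levels of all 4 genes. Acta2, the contractile actin, was at 11.0 CPM in the lowest ligated vehicle library, 12.2 at the median and 18.4 in the highest, against 0, 0.179 and 0.261 CPM in sham libraries. Sham slices held 19 Acta2 counts over 9 libraries, 8 of the 9 libraries had 3 counts or fewer and 1 had 0, so Acta2 was close to the detection limit there. Tagln, the actin-binding protein, was at 20.9, 28.8 and 48.5 CPM (lowest, median and highest) in ligated vehicle libraries and at 0.610, 0.956 and 2.33 CPM in sham libraries. Des, the rat stellate marker, was at 16.1, 18.2 and 28.7 CPM in ligated vehicle libraries and at 0.449, 1.10 and 2.44 CPM in sham libraries. Vim was at 495, 593 and 776 CPM in ligated vehicle libraries and at 24.5, 38.4 and 57.7 CPM in sham libraries. The ligated and sham groups did not overlap for any of the 4 genes.

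**Figure D1:**
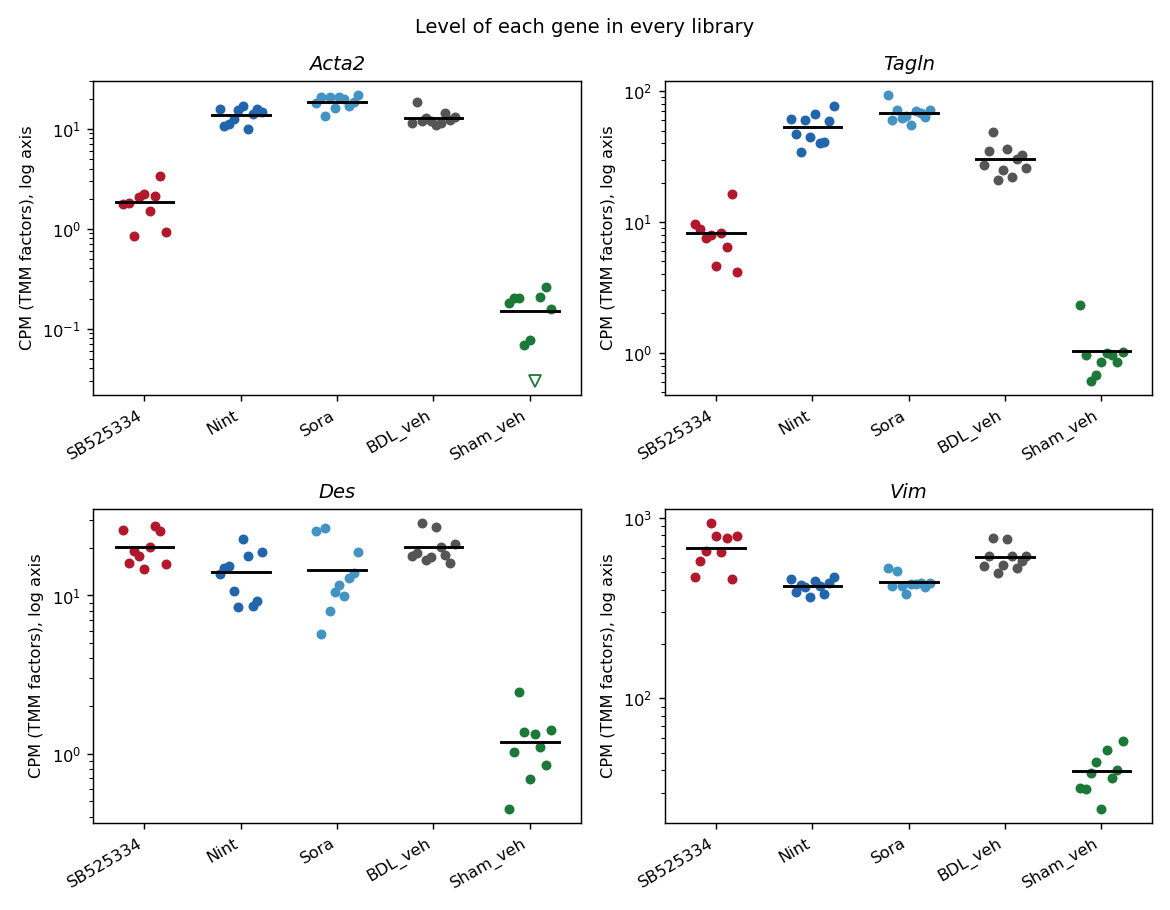
Level of each gene in every library (CPM with TMM factors, log axis, 1 panel per gene); points are libraries, horizontal bars are group means, and the open triangle marks the sham library with 0 Acta2 counts. Acta2 and Tagln sit lower in BDL_SB525334 (means 1.85 and 8.20 CPM) than in the other ligated groups, while Vim sits lower in BDL_Nint and BDL_Sora (419 and 438 CPM) than in BDL_veh (606 CPM).

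Acta2 had the widest change of the 4, with a log2 fold change of 6.34 (SE 0.228, 95% interval 5.88 to 6.80, edgeR adjusted p = 3.28e-29) for BDL_veh against Sham_veh. The pooled counts gave a ratio of 86.5 with an exact 95% interval of 55.3 to 144 for counting error alone. Only 0.934% of the tested genes had a higher log2 fold change than Acta2. Tagln rose by 4.91 in log2 units (SE 0.233, edgeR adjusted p = 4.3e-24), Des by 4.07 (SE 0.272, edgeR adjusted p = 1.8e-18) and Vim by 3.94 (SE 0.131, edgeR adjusted p = 1.68e-30). As folds these are 30.1 for Tagln, 16.8 for Des and 15.3 for Vim, and 3.47%, 6.25% and 6.84% of tested genes had higher fold changes than these 3 genes, in that order. Ligation called 82.2% of all tested genes, 40% as higher and 42.2% as lower, and 27.5% were higher in ligated slices with no overlap between the groups, so a call alone says little about these 4 genes. The median log2 fold change was 4.49 over the 4 genes and -0.05 over all tested genes. The share of called genes that were higher was 48.7%, and 66.1% when libraries were scaled by total counts, which moved the median of all genes to 0.30. The first component of the deposited quality metrics separated the groups, at -12.6 to -3.42 in ligated vehicle libraries and 5.33 to 11.7 in sham libraries. With that component as a covariate the log2 fold changes were 6.17 for Acta2, 5.08 for Tagln, 4.08 for Des and 4.10 for Vim, all still called (largest edgeR adjusted p = 8.73e-11). As its ranges did not overlap between these groups, this fit cannot tell quality and ligation apart. In bulk RNA from slices, fewer cells of a type and less RNA per cell cannot be told apart.

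SB525334 split the 4 genes. The contractile genes were lower: Acta2 was at 0.848, 1.79 and 3.34 CPM (lowest, median and highest) in SB525334 slices, against 11.0, 12.2 and 18.4 CPM in ligated vehicle slices. Tagln was at 4.13, 7.93 and 16.5 CPM in SB525334 slices and at 20.9, 28.8 and 48.5 CPM in ligated vehicle slices. Every SB525334 library lay below every vehicle library for both genes. Acta2 counts in SB525334 libraries were 10 to 44, so each value there rests on few reads. Acta2 fell to 14.3% of the vehicle mean, with a log2 fold change of -2.80 (SE 0.162, 95% interval -3.12 to -2.47, edgeR adjusted p = 2.84e-20). Tagln fell to 27.0% of the vehicle mean, with a log2 fold change of -1.88 (SE 0.183, 95% interval -2.25 to -1.51, edgeR adjusted p = 1.16e-12). Among all tested genes 1.41% had a lower log2 fold change than Acta2 and 3.86% a lower one than Tagln.

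The intermediate filament genes did not move with them. Des was at 14.8, 19.0 and 27.5 CPM in SB525334 slices, against 16.1, 18.2 and 28.7 CPM in ligated vehicle slices. Vim was at 460, 658 and 934 CPM in SB525334 slices, against 495, 593 and 776 CPM in ligated vehicle slices. The groups overlapped for both genes. The log2 fold change was 0.01 for Des (SE 0.213, 95% interval -0.42 to 0.44, edgeR adjusted p = 0.976) and 0.16 for Vim (SE 0.113, 95% interval -0.06 to 0.39, edgeR adjusted p = 0.191), so changes of up to about these bounds remain possible. Of the 4 genes, 2 were called lower and 0 higher, where 34.8% of all tested genes were called lower, 38.2% higher and 73% in all, and 16% were lower with no overlap between the groups.

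Scaling bears on Des and Vim here. When libraries were scaled by total counts alone, the median of all genes for SB525334 against vehicle moved to -0.38 on the log2 scale, and the share of called genes that were higher was 24.5% in place of 52.3%. Vim was then called lower at -0.26 (edgeR adjusted p = 0.0257) and Des was at -0.40 (edgeR adjusted p = 0.08), both close to that median. Acta2 and Tagln were at -3.21 and -2.28 with total counts, far below it (edgeR adjusted p = 4.19e-22 and 4.32e-15). Without SB525334 libraries 1, 6 and 8, Vim was called higher at 0.32 (edgeR adjusted p = 0.0106) and Tagln was at -2.20 (edgeR adjusted p = 1.07e-13), and without vehicle libraries 3 and 6 Vim was called at 0.26 (edgeR adjusted p = 0.0369). Those 3 libraries held 8.31 to 16.5 CPM of Tagln, against 4.13 to 8.77 CPM in the other 6, and 460 to 650 CPM of Vim, against 576 to 934 CPM in the other 6. The first component of the deposited quality metrics lay between -1.04 and 15.5 in SB525334 libraries and between -12.6 and -3.42 in ligated vehicle libraries, so it moved with the treatment. With that component as a covariate Acta2 was at -2.64 and Tagln at -2.04 (edgeR adjusted p = 2.34e-10 and 1.69e-06), both still called lower, and Vim was at -0.0016 (edgeR adjusted p = 0.995). As its ranges did not overlap between these groups, this fit cannot tell quality and treatment apart.

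**Figure D2:**
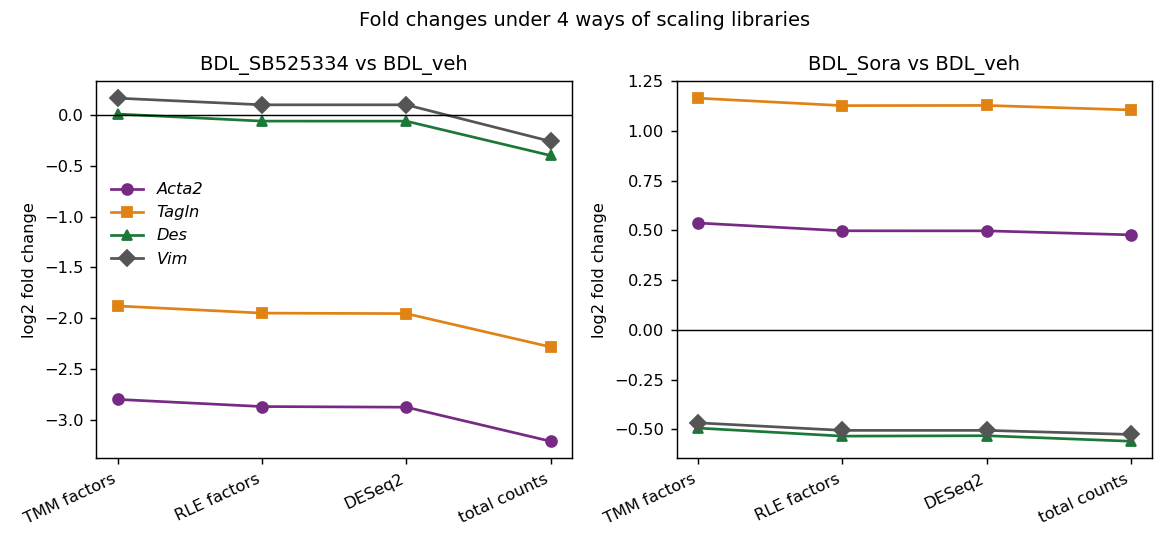
Log2 fold change of each gene for BDL_SB525334 against BDL_veh (left) and BDL_Sora against BDL_veh (right) under 4 ways of scaling libraries; lines join the values of 1 gene. For SB525334, Vim runs between 0.16 with TMM factors and -0.26 with total counts, crossing 0, while Acta2 and Tagln stay at -1.88 or below throughout.

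Under Sora the contractile genes were higher and Vim was lower. Tagln was at 55.4, 66.4 and 93.0 CPM in Sora slices, against 20.9, 28.8 and 48.5 CPM in ligated vehicle slices, with no overlap. Its log2 fold change was 1.16 (SE 0.163, 95% interval 0.84 to 1.49, edgeR adjusted p = 2.23e-07), a fold of 2.24, and 2.84% of tested genes had a higher one. Acta2 was at 13.4, 19.2 and 21.6 CPM in Sora slices, against 11.0, 12.2 and 18.4 CPM in ligated vehicle slices, and 6 of 10 Sora libraries lay above the highest vehicle library. Acta2 rose by 0.54 in log2 units (SE 0.131, 95% interval 0.27 to 0.80, edgeR adjusted p = 0.00136), but with limma on the authors' log2 CPM table the value was 0.53 and was not called (adjusted p = 0.158).

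Vim was at 380, 428 and 526 CPM in Sora slices, against 495, 593 and 776 CPM in ligated vehicle slices, and 8 of 10 Sora libraries lay below the lowest vehicle library. Vim fell by 0.47 in log2 units (SE 0.111, edgeR adjusted p = 0.00095). Des spread widely, at 5.73, 12.3 and 26.8 CPM in Sora slices, against 16.1, 18.2 and 28.7 CPM in ligated vehicle slices. Its log2 fold change of -0.49 (SE 0.208, 95% interval -0.91 to -0.08, edgeR adjusted p = 0.0676) did not pass the threshold, although 7 of 10 Sora libraries lay below every vehicle library. Sora libraries 1 and 3, at 25.7 and 26.8 CPM, lay well above the vehicle median. The call for Des turned with the setting: it was made at -0.53 with RLE factors (edgeR adjusted p = 0.0439) and at -0.55 with replicate number as a block (edgeR adjusted p = 0.0159), and was not made without vehicle libraries 3 and 6, at -0.35 (edgeR adjusted p = 0.237). Leaving out Sora library 1 or 3 alone gave -0.62 and -0.64 and made the call (edgeR adjusted p = 0.0181 and 0.0146). In this comparison 2 of the 4 genes were higher and 1 lower, where 29.3% of all tested genes were called, 16.3% higher and 13% lower, and 3.07% were higher with no overlap. The balance of calls turned with the scaling: the called genes that were higher made up 55.7% under TMM, 44.8% under RLE, 45% in DESeq2 and 38.1% under total-count scaling, while the 3 called genes kept their calls and directions under all of these.

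Nint gave the same directions for Tagln and Vim. Tagln was at 34.5, 53.2 and 77.4 CPM in Nint slices, against 20.9, 28.8 and 48.5 CPM in ligated vehicle slices, and rose by 0.81 in log2 units (SE 0.163, 95% interval 0.49 to 1.14, edgeR adjusted p = 0.00013). Here 5 of 10 Nint libraries lay above the highest vehicle library, so the groups overlapped. Vim was at 363, 423 and 467 CPM in Nint slices, against 495, 593 and 776 CPM in ligated vehicle slices. All 10 Nint libraries lay below all vehicle libraries for Vim, and it fell by 0.53 in log2 units (SE 0.111, 95% interval -0.75 to -0.31, edgeR adjusted p = 0.000223).

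Acta2 was at 9.96, 14.4 and 16.8 CPM in Nint slices, against 11.0, 12.2 and 18.4 CPM in ligated vehicle slices, and the groups overlapped except for 2 Nint libraries below the lowest vehicle library. Its log2 fold change was 0.09 (SE 0.132, 95% interval -0.18 to 0.35, edgeR adjusted p = 0.698). Des was at 8.42, 14.3 and 22.6 CPM in Nint slices, against 16.1, 18.2 and 28.7 CPM in ligated vehicle slices, with a log2 fold change of -0.53 (SE 0.208, 95% interval -0.95 to -0.11, edgeR adjusted p = 0.0572) that did not pass the threshold. Like the value for Sora, it was called with RLE factors at -0.56 (edgeR adjusted p = 0.0394) and with the replicate block at -0.55 (edgeR adjusted p = 0.0176), and not without vehicle libraries 3 and 6, at -0.38 (edgeR adjusted p = 0.21). Leaving out Nint library 6, 7 or 10 alone gave -0.63, -0.57 and -0.58 and made the call (edgeR adjusted p = 0.0239, 0.0482 and 0.0431). Of the 4 genes 1 was higher and 1 lower, where 24.3% of all tested genes were called, 13.3% higher and 10.9% lower, and 4.35% were lower with no overlap. The 3 compound comparisons share the same 10 vehicle libraries, so their values stand side by side and are not independent of each other.

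**Figure D3:**
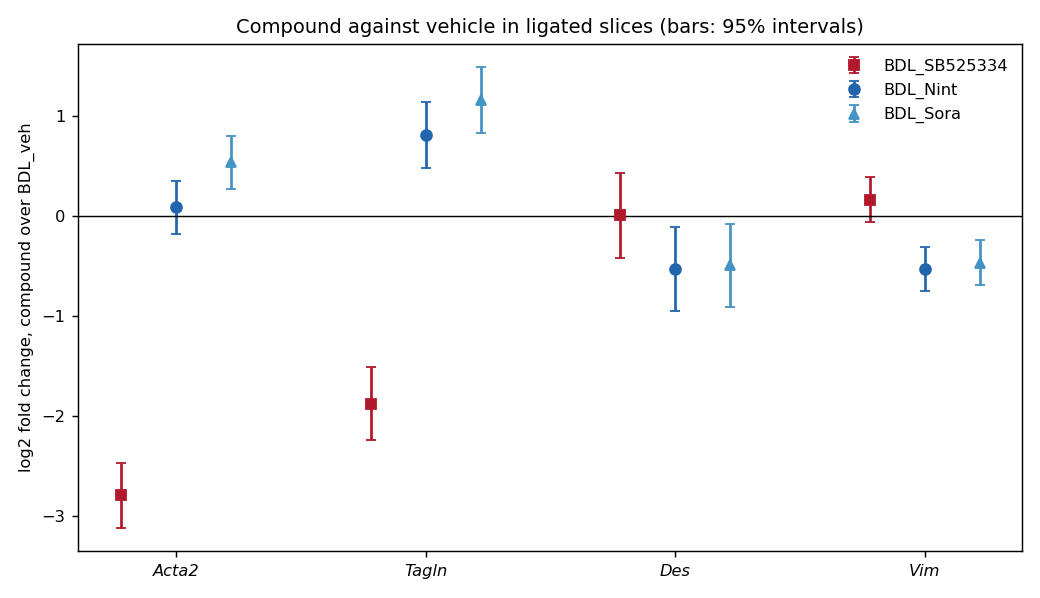
Log2 fold change of each gene against BDL_veh for BDL_SB525334, BDL_Nint and BDL_Sora; points are edgeR estimates and bars 95% intervals. SB525334 lies at -2.80 for Acta2 and -1.88 for Tagln and near 0 for Des and Vim, while Nint and Sora lie above 0 for Tagln (0.81 and 1.16) and below 0 for Vim (-0.53 and -0.47).

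Set against each other, Nint and Sora gave no call for the level of any of the 4 genes. The 2 ratios of these genes that differed, given further on, had p-values adjusted over far fewer tests. The log2 fold change for Nint against Sora was -0.45 for Acta2 (SE 0.131, 95% interval -0.71 to -0.18, edgeR adjusted p = 0.0538) and -0.35 for Tagln (SE 0.160, 95% interval -0.67 to -0.03, edgeR adjusted p = 0.263). It was -0.03 for Des (95% interval -0.46 to 0.39, edgeR adjusted p = 0.964) and -0.06 for Vim (95% interval -0.29 to 0.16, edgeR adjusted p = 0.835). None of the 4 passed the threshold, where 2.32% of all tested genes did, and these intervals do not show that the compounds act alike. Acta2 was called lower in Nint than in Sora slices by DESeq2 at -0.44 (adjusted p = 0.0105) and in a fit of the 2 groups alone at -0.45 (edgeR adjusted p = 0.00679), and also without Nint library 6 (-0.49, edgeR adjusted p = 0.0486) or Sora library 1 or 3 (-0.46 and -0.49, edgeR adjusted p = 0.0497 and 0.0233).

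SB525334 differed from both multikinase inhibitors in each of the 4 genes. Against Sora, Acta2 was lower in SB525334 slices, at -3.33 in log2 units (SE 0.163, edgeR adjusted p = 1.36e-22) and Tagln likewise, at -3.04 (SE 0.188, edgeR adjusted p = 6.09e-19), with no overlap between the groups, where 14.1% of tested genes were lower with no overlap. Against Nint these values were -2.89 for Acta2 (SE 0.162, edgeR adjusted p = 1.55e-20) and -2.69 for Tagln (SE 0.186, edgeR adjusted p = 2.3e-17), also with no overlap, where 14.6% of tested genes were. The intermediate filament genes went the other way. Vim was higher in SB525334 slices by 0.63 against Sora (SE 0.114, edgeR adjusted p = 3.23e-06) and by 0.69 against Nint (SE 0.114, edgeR adjusted p = 5.23e-07) on the log2 scale. Des was higher by 0.50 against Sora (SE 0.214, edgeR adjusted p = 0.0335) and by 0.54 against Nint (SE 0.215, edgeR adjusted p = 0.0235). The Des calls are weak: without SB525334 libraries 1, 6 and 8 the values were 0.37 and 0.40 (edgeR adjusted p = 0.169 and 0.132), and with total counts 0.16 in both comparisons (edgeR adjusted p = 0.493 and 0.494). With the quality component as a covariate they were 0.49 and 0.52 (edgeR adjusted p = 0.223 and 0.221). Leaving out 1 library was enough to lose the Des call against Sora for any of Sora libraries 2, 4, 5, 6 and 7 and SB525334 libraries 1, 7 and 8 (0.41 to 0.47, edgeR adjusted p between 0.0545 and 0.0734), and against Nint for SB525334 library 7 (0.47, edgeR adjusted p = 0.0535). With total counts Vim was still called higher, at 0.27 against Sora and 0.30 against Nint (edgeR adjusted p = 0.0226 and 0.0106). These comparisons called 72.4% of tested genes against Sora (36.1% higher, 36.3% lower) and 72.7% against Nint (36.4% higher, 36.3% lower), so a call alone says little here. With total counts only 25.5% of the calls against Sora and 23.9% of those against Nint were higher, in place of 49.8% and 50.1%.

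No compound brought any of the 4 genes to sham levels. Acta2 averaged 1.85 ± 0.747 CPM in SB525334 slices (SD, n = 9) and 0.151 ± 0.0842 CPM in sham slices (SD, n = 9), a difference of 3.54 in log2 units (SE 0.271, edgeR adjusted p = 1.57e-16), and the pooled counts of 198 and 19 gave a ratio of 12.2 (exact 95% interval 7.64 to 20.8, counting error only). Tagln averaged 8.20 ± 3.60 CPM in SB525334 slices and 1.03 ± 0.509 CPM in sham slices, a difference of 3.03 in log2 units (SE 0.244, edgeR adjusted p = 1.32e-15). Des and Vim remained higher than sham by 4.07 and 4.10 on the log2 scale in SB525334 slices (edgeR adjusted p = 3.38e-18 and 1.2e-30). For Nint against sham the log2 fold changes of Acta2, Tagln, Des and Vim were 6.43, 5.72, 3.54 and 3.41, and for Sora against sham 6.88, 6.07, 3.57 and 3.47, with edgeR adjusted p-values of 2.28e-16 or smaller for Nint and 1.71e-16 or smaller for Sora. No compound group overlapped with the sham group in any of these genes. All 4 were thus called higher in each of the 3 comparisons, where 42.9% of tested genes were called higher for SB525334 (81.2% called in all), 40% for Nint (80.9% in all) and 40.1% for Sora (80.4% in all). The shares of tested genes that were higher with no overlap were 23.6%, 26.8% and 26.3% in the same order. With total counts the share of calls that were higher was 66.4% for Nint and 65.9% for Sora, in place of 49.5% and 49.9%. The quality component lay between -9.29 and -2.21 in Nint libraries and between -13.9 and -0.17 in Sora libraries, below its range in sham libraries. The calls for all 4 genes were kept with it as a covariate. Without overlap in the component, this fit cannot tell quality and group apart for Nint and Sora against sham.

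The order of the group means differed between the contractile and the filament genes. Acta2 averaged 18.7 ± 2.64 CPM in Sora, 13.7 ± 2.41 in Nint and 12.9 ± 2.18 in ligated vehicle slices (SD, n = 10 each), followed by SB525334 and sham slices, and neither Nint and Sora nor Nint and vehicle passed the test as neighbours. Tagln had the same order, at 68.1 ± 10.3, 53.4 ± 13.8 and 30.3 ± 8.16 CPM in Sora, Nint and ligated vehicle slices, and here Nint and vehicle differed while Nint and Sora did not pass the test. Des averaged 20.3 ± 4.88 CPM in SB525334, 20.2 ± 4.38 in ligated vehicle, 14.4 ± 7.16 in Sora, 14.0 ± 4.81 in Nint and 1.18 ± 0.571 in sham slices, and sham was the only neighbour in that order that passed the test. Vim averaged 679 ± 160 CPM in SB525334, 606 ± 95.7 in ligated vehicle, 438 ± 44.0 in Sora, 419 ± 34.0 in Nint and 39.6 ± 10.4 CPM in sham slices, and the steps between Sora and vehicle and between Nint and sham passed the test.

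Ratios of a pair of genes within the same library do not depend on how libraries are scaled, and they showed the split between contractile and filament genes directly. The log2 ratio of Tagln to Vim was -6.42 ± 0.874 in SB525334 slices (SD, n = 9), -3.01 ± 0.315 in Nint and -2.69 ± 0.138 in Sora slices, against -4.34 ± 0.249 in ligated vehicle slices (SD, n = 10 each). None of the compound groups overlapped with the vehicle group, although the highest SB525334 library and the lowest vehicle library touched at -4.79. How often ratios of other gene pairs do not overlap was not computed. The difference from vehicle was -2.08 for SB525334 (exact permutation test, adjusted p = 0.00013; the unadjusted p of 2.17e-05 is the smallest this test can give), 1.33 for Nint and 1.65 for Sora (permutation test with 100000 draws, adjusted p = 0.0002 for each). The ratio of Acta2 to Des was -3.43 ± 0.542 in SB525334 slices, against -0.63 ± 0.410 in ligated vehicle slices, and differed by -2.80 (exact permutation test, adjusted p = 0.00013). Under Sora and Nint this ratio was higher than in vehicle slices by 1.15 and 0.66 (permutation test, adjusted p = 0.00279 and 0.0173), with overlap.

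The mean log2 ratio of the filament genes to each other differed least from vehicle among the 6 pairs, under every compound. The ratio of Des to Vim differed from vehicle by -0.14 for SB525334, -0.05 for Nint and -0.15 for Sora, and for ligated vehicle against sham by 0.08, and none of these passed the permutation test (adjusted p between 0.52 and 0.706). Its spread was wider under the compounds, with an SD of 0.600 in SB525334, 0.431 in Nint and 0.599 in Sora slices. The SD was 0.116 in ligated vehicle slices. Like means thus hide libraries that differ, and the spread was not tested. The ratio of Acta2 to Tagln was -2.07 in SB525334, -1.93 in Nint and -1.86 in Sora slices, against -1.20 in ligated vehicle slices. It was therefore lower than in vehicle slices under all 3 compounds, by -0.86 for SB525334 (exact permutation test, adjusted p = 0.00352), -0.73 for Nint and -0.66 for Sora (permutation test, adjusted p = 0.00175 and 0.00348). Acta2 fell further than Tagln under SB525334, and Tagln rose under Nint and Sora with a smaller rise of Acta2 under Sora and no call for it under Nint. In ligated vehicle slices the ratio was higher than in sham slices by 0.82 (exact permutation test, adjusted p = 0.00642). The sham mean rests on 0 to 4 Acta2 counts per library and moved with the prior count added before taking logs, at -2.03 with a prior of 2 and -2.66 with a prior of 0.5, which made the difference 1.45, so it is not set beside the compound values. In all, 21 of 30 ratio tests, over 6 pairs of genes and 5 comparisons, passed the adjusted threshold. The 6 pairs are built from the same 4 genes, so these tests are not separate results. Ratios of other gene pairs were not tested, so the count has no share beside it and says little about these genes. Between Nint and Sora slices the ratios to Vim were lower in Nint, by -0.39 for Acta2 and -0.32 for Tagln (permutation test, adjusted p = 0.0109 and 0.00979). Ratios were adjusted over 30 tests and single genes over 14775, so calls of the 2 kinds cannot be set against each other. Unadjusted p was 0.00724 and 0.0062 for these ratios (permutation test). For Acta2 and Tagln alone it was 0.00132 and 0.0332 (edgeR).

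**Figure D4:**
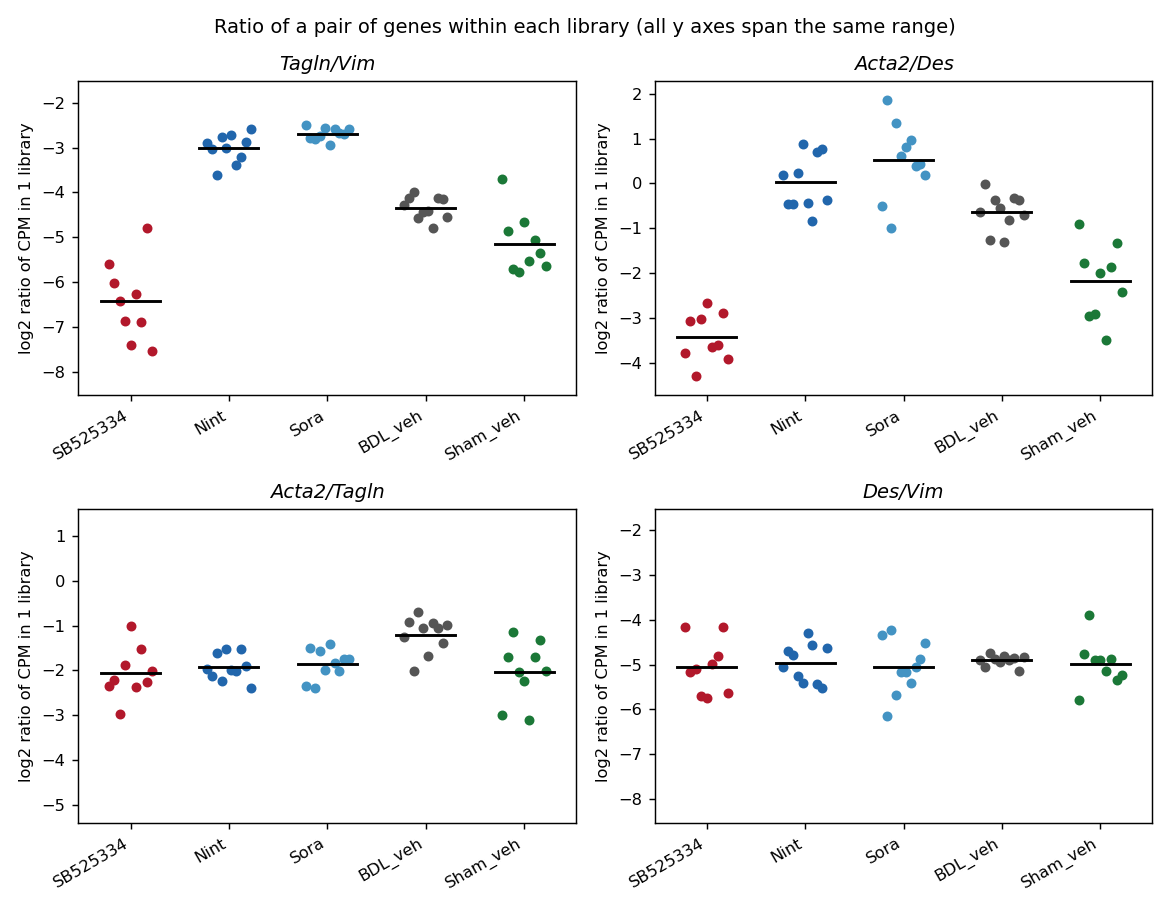
Log2 ratio of the CPM of a pair of genes within each library, for Tagln over Vim, Acta2 over Des, Acta2 over Tagln and Des over Vim; points are libraries, bars are group means, and all y axes span the same range; sham values of pairs with Acta2 depend on the prior count. Tagln over Vim separates BDL_SB525334 (mean -6.42) and the multikinase groups (means -3.01 and -2.69) from BDL_veh (mean -4.34) in opposite directions. The mean of Des over Vim lies between -5.06 and -4.91 in all groups, but its libraries spread more widely in every other group than in BDL_veh.

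The libraries of a group also differed among themselves. Des varied most in Sora slices, with a coefficient of variation of 49.7%, and Vim least in Nint slices, with 8.11%. In ligated vehicle slices Des and Vim were both highest in libraries 3 and 6, at 28.7 and 27.3 CPM for Des and 776 and 766 CPM for Vim, and their log2 CPM had a Pearson r of 0.93 and a Spearman rho of 0.79 over 10 libraries (permutation p = 0.0016 and 0.00932; adjusted over 30 correlations 0.048 and 0.162). Without the 2 libraries farthest from the median r was 0.65, so the relation rests largely on those libraries. No other correlation within groups passed the adjusted threshold. In SB525334 slices Tagln and Vim ran in opposite directions, with r = -0.75 and rho = -0.82 over 9 libraries (exact permutation p = 0.0197 and 0.0108; adjusted p = 0.119 and 0.162), and library 8 had the highest Tagln, 16.5 CPM, and the lowest Vim, 460 CPM. In ligated vehicle slices the same genes had r = 0.74 (permutation p = 0.0179, adjusted p = 0.119), and the difference between these groups was not tested. Without the 2 libraries farthest from the Tagln median, r was 0.41 in ligated vehicle and -0.60 in SB525334 slices.

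**Figure D5:**
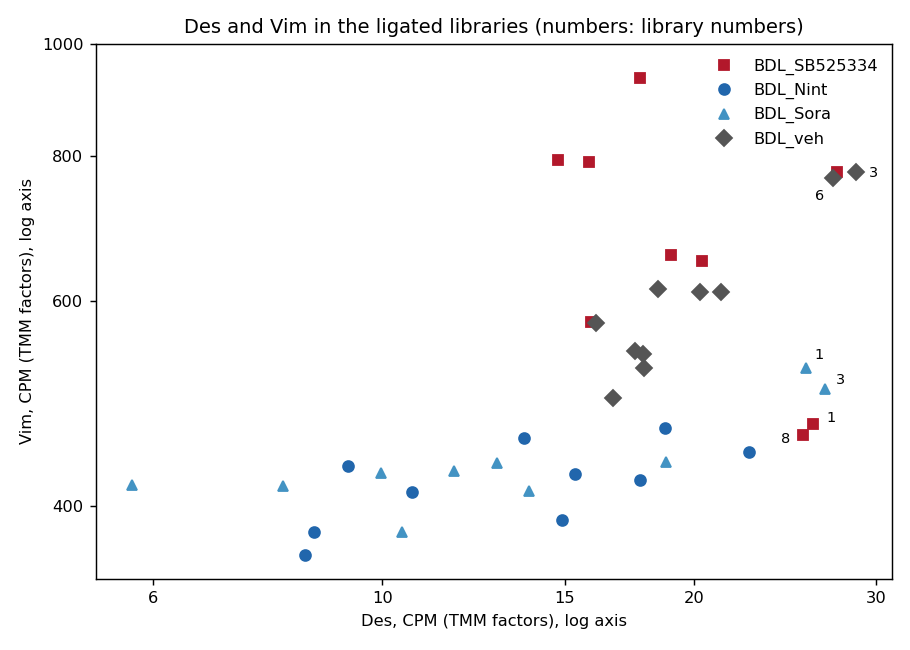
Vim against Des in every ligated library (CPM with TMM factors, both axes log); points are libraries and numbers are library numbers. Vehicle libraries lie along a rising line whose upper end is libraries 3 and 6 (Vim 776 and 766 CPM). SB525334 libraries 1 and 8 stand below it, with high Des and low Vim (470 and 460 CPM). So do Sora libraries 1 and 3 (Vim 526 and 504 CPM) and Nint library 6, which is not numbered (Vim 445 CPM). Further libraries without numbers lie off the line on both sides. Examples are Sora library 10 below it (Vim 436 CPM) and SB525334 library 4 above it (Vim 934 CPM).

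After the mean of each group was removed, the genes most like each of the 4 over the 48 libraries were not one another. The highest Pearson r of log2 CPM was 0.53 for Acta2, 0.69 for Tagln, 0.81 for Des, with ENSRNOG00000036960, and 0.78 for Vim, with ENSRNOG00000016408. Acta2 and Tagln had r = 0.31, which placed Tagln 285th of 14774 genes in likeness to Acta2, and Des and Vim had r = 0.36. Both values pool groups that differed in sign. Within groups, Des and Vim had r = 0.93 in ligated vehicle, 0.77 in Sora, 0.65 in Nint, 0.55 in sham and -0.51 in SB525334 slices. Acta2 and Tagln ran from -0.29 in Sora to 0.62 in Nint slices. The values over the 48 libraries are descriptions over libraries that share their processing and depth, and they carry no test.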

How the data were processed

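Expected counts per gene, deposited by the authors, came from total RNA (RNeasy 96 kit, standard Illumina libraries, per the labels' protocols). RSEM and edgeR, with no versions, and build Rnor_6.0 are named per the submitters' processing notes; aligner, annotation and strand setting are not given in any source used here. The values were not normalised and 8.02% were not whole (tolerance 1e-06), so they were rounded. The authors also deposited log2 CPM values of 14418 genes, which served as an alternative, and the first component of 151 deposited quality metrics, of mixed percent, count and other scores, served as a covariate in another.

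Genes were filtered with filterByExpr by group, scaled with TMM factors and tested with edgeR 4.0.16 (R 4.3.3; quasi-likelihood, robust, two-sided) in 1 fit of all 48 libraries with no covariate. Adjusted p is Benjamini-Hochberg over 14775 genes, called under 0.05. Intervals are 95%. Ratios and correlations used log2 CPM with a prior count of 2 and two-sided permutation tests in SciPy 1.17.1, exact for groups under 10 libraries and otherwise by 100000 draws. Intervals on pooled counts cover counting error only, as PCR reads are not independent molecules. The edgeR fit, for some of the comparisons, and the exact permutation test between groups were run on simulated data. The test by draws, the test of correlations, DESeq2 and the limma fits were not. Over 207 pairs of libraries of the same group chi-square per degree of freedom was at least 3.94, so no pair was the same library sequenced again. Separate preparations of the same RNA, or slices of the same animal, would not be found in this way.

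Alternatives were RLE factors, total counts, DESeq2 1.42.0, no filter, 5 CPM in at least 9 libraries, the 2 groups alone, weighted voom and a fit of the authors' table (both limma 3.58.1), a replicate block, plate column, the quality component, and leaving out libraries. The genes, gene lists and alternatives were chosen with earlier results of these data known. Genes named were the 4 members and, for each, the 3 with the highest correlation over libraries, of which at most 2 IDs are printed. Symbols of the 4 genes come with the choice of genes. The reference table (GRCr8, 47357 genes) matched 0 of 32883 IDs, so the pathway lists and the cell type markers chosen for comparison (stellate, portal fibroblast, smooth muscle, mesothelial, cholangiocyte, endothelial, leukocyte and hepatocyte) gave no values.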

Additional observations from a re-analysis of the deposited data

Results flagged for a closer look

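In 5 of 20 groups of values (4 genes in 5 groups of libraries) the highest library stood far from the others, judged by its gap to the next library as a share of the whole range. For normally distributed values chance alone flags about 1 in 20 groups in such a check. CPM values need not be so distributed, so the share to expect here is not known, and no explanation was tested. Acta2 was at 18.4 CPM in ligated vehicle library 2, with the next at 14.4. Tagln was at 16.5 CPM in SB525334 library 8, with the next at 9.62, and at 93.0 CPM in Sora library 1, with the next at 72.3. In sham slices Tagln was at 2.33 CPM in library 1, with the next at 1.02, and Des was at 2.44 CPM in library 3, with the next at 1.42. Leaving out any of these libraries alone kept the call and direction of each gene's fold change against sham, and of Acta2 and Tagln against ligated vehicle slices; without sham library 1 the uncalled Des to Vim ratio for ligated vehicle against sham changed sign, at -0.023.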

How the results depend on the processing

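Over 40 fold changes, 30 kept their direction and side of the threshold under every alternative. These include all 16 against sham, Acta2 and Tagln for SB525334, Tagln and Vim for Nint and Sora against vehicle, and all values of Acta2, Tagln and Vim for SB525334 against the other compounds. All 30 ratio results kept their direction and side of the threshold with a prior count of 0.5, but for ligated vehicle against sham the sizes moved: Acta2 to Tagln 1.45 in place of 0.82, Acta2 to Des 2.18 in place of 1.55, Acta2 to Vim 2.38 in place of 1.62 and Des to Vim 0.20 in place of 0.08. The cause of the changes below was not tested. Few counts limit Acta2 in sham and SB525334 slices. Acta2 for SB525334 against sham in a fit of the 2 groups alone was not run, as it failed the filter.

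Acta2 for Sora against vehicle was 0.53 and not called with the authors' log2 CPM. Des for Sora against vehicle was called at -0.53 with RLE factors, -0.56 with total counts, -0.53 with DESeq2, -0.77 with voom, -0.63 with the authors' log2 CPM and -0.55 with the replicate block. Des for Nint against vehicle was called at -0.56 with RLE factors, total counts and DESeq2, -0.54 in the 2 groups alone, -0.51 with voom and -0.55 with the replicate block. The block changed no other call. Mean r was 0.0236 over 93 pairs of same-numbered libraries and -0.00173 over pairs with other numbers, and 6 of 48 libraries correlated best with their own number. These values showed no pairing by number. They cannot tell whether libraries share an animal, which the labels do not give.

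For SB525334 against vehicle, Des was -0.062 with RLE factors and DESeq2, -0.061 in the 2 groups alone, -0.40 with total counts, -0.055 with 5 CPM, -0.026 with the authors' log2 CPM, -0.0052 with the quality component and -0.13 without libraries 1, 6 and 8, none of them called. Vim was -0.26 with total counts and called, -0.0016 with the quality component, and called at 0.20 with voom, 0.32 without libraries 1, 6 and 8 and 0.26 without vehicle libraries 3 and 6.

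For Nint against Sora, Acta2 was called at -0.44 with DESeq2, -0.45 in the 2 groups alone and -0.47 with voom, and Tagln at -0.30 with voom; Des was 0.00083 with total counts, 0.26 with voom and 0.040 with the authors' log2 CPM, not called. The Des call for SB525334 against Sora was lost at 0.16 with total counts, 0.50 with no filter, 0.45 with 5 CPM, 0.49 in the 2 groups alone, with plate column and with the quality component, and 0.37 without libraries 1, 6 and 8. Against Nint it was lost at 0.16 with total counts, 0.52 with the quality component and 0.40 without those libraries.

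Leaving out each library in turn gave Des -0.64 to -0.40 for Sora, -0.63 to -0.46 for Nint and -0.057 to 0.076 for SB525334 against vehicle, 0.41 to 0.65 for SB525334 against Sora, 0.47 to 0.64 against Nint, and -0.14 to 0.11 for Nint against Sora, and Acta2 -0.49 to -0.41 for Nint against Sora. The Des to Vim ratio changed sign for ligated vehicle against sham (-0.023 to 0.21), Nint against vehicle (-0.13 to 0.0086) and Nint against Sora (-0.022 to 0.19).

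Of all tested genes, 4323 were called for Sora against vehicle and 7581 with voom; 3587 for Nint against vehicle, 5674 in the 2 groups alone and 6452 with voom; and 343 for Nint against Sora, 598 with DESeq2, 1605 in the 2 groups alone, 3695 with voom, 171 with the authors' log2 CPM, 161 with plate column and 644 without SB525334 libraries 1, 6 and 8. For Nint against Sora 78.4% of the calls were higher with total counts, in place of 59.2%.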
